A study of Mus musculus with 6 samples.

Results

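Primordial germ cells are the embryonic founders of sperm and eggs. The 6 genes described here, Prdm1, Tfap2c, Dppa3, Kit, Alpl and Itgb3, were chosen by name as genes of primordial germ cell specification and identity. They stand on 7 features of the array (Alpl on 2) and are 6 of the 22180 genes that have a feature with a single gene symbol. RNA came from R1, a line of mouse embryonic stem cells (male, 129X1 x 129S1), cultured on gelatin in serum with LIF, a cytokine that maintains self-renewal. The untreated group had 3 samples, and the AA2G group had 3 samples kept for 3 days with 0.74 mM (250 µg/ml) ascorbic acid 2-glucoside, a stable vitamin C derivative that the labels call 2-glucose. Each sample was hybridised to 1 Mouse Gene 2.0 ST array, and all samples come from this single line, so the comparison shows the response of that line in culture and not of embryonic germ cells.

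In the mouse embryo, BMP and WNT signals act on epiblast cells, and the transcription factors PRDM1 (BLIMP1), PRDM14 and TFAP2C then turn down somatic genes and restore pluripotency genes. Dppa3 (Stella), Kit, Alpl and Itgb3 (CD61) are used to recognise the cells that result, and several of these genes are also active in embryonic stem cells. Genes of the later germ line, such as Dazl and Ddx4, follow after specification, and many of them are silenced by DNA methylation in other cells. Ascorbate is a cofactor of the TET enzymes, which oxidise methylated cytosine. The comparison asks whether genes of the later germ line rise with AA2G together with, or without, the genes of germ cell specification.

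None of the 6 specification genes passed the test. Their log2 fold changes, AA2G minus untreated, lay between -0.09 (Alpl) and 0.20 (Kit), and their adjusted p between 0.610 and 0.978 (limma, Benjamini-Hochberg over 23521 features, threshold 0.05). Over all features 0.761% passed in either direction, so a count of 0 among 6 genes is close to that background and says little by itself. The intervals bound the change in each measured value. The 95% intervals of all 7 features lay between -0.30 and 0.43 on the log2 scale, which are folds of 0.810 and 1.35, so a change of 1.5-fold in either direction lies outside each of them. Over all features 93.7% had an interval inside 1.5-fold both ways, so this count is also close to background and not particular to these genes. At an unadjusted p below 0.05 there were also 0 members, where 4.66% of all features were higher and 5.06% lower.

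Prdm1 (Entrez Gene 12142) encodes the zinc finger repressor that starts the germ cell programme. Its log2 values on untreated replicates 1, 2 and 3 were 7.40, 7.01 and 7.10, and on AA2G replicates 1, 2 and 3 they were 7.46, 7.04 and 7.18. The groups overlapped almost wholly, and in each group replicate 1 was the highest and replicate 2 the lowest. The means were 7.17 ± 0.20 and 7.23 ± 0.21 (SD, n = 3), and the log2 fold change was 0.06 ± 0.14 (SE; limma adjusted p = 0.939), with an interval from -0.25 to 0.37.

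Tfap2c (21420) encodes AP-2γ, which acts beside PRDM1 in germ cells and is also used by trophoblast. Untreated arrays gave 7.95, 7.70 and 7.79 and AA2G arrays 7.85, 7.88 and 7.75. The AA2G values fell inside the range of the untreated ones. The log2 fold change was 0.02 ± 0.09 (SE; limma adjusted p = 0.978), and its interval ran from -0.18 to 0.21.

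Dppa3 (73708) marks germ cell precursors and encodes a chromatin factor that shields DNA methylation in the early embryo. It was measured at 5.31, 5.01 and 5.29 without AA2G and at 5.03, 5.12 and 5.35 with it. High and low arrays occurred in both groups. The log2 fold change was -0.04 ± 0.11 (SE; limma adjusted p = 0.953), with an interval from -0.30 to 0.22. This feature is dim: of 1108 features of olfactory receptor genes, which are not expected to be active in stem cells, 3.25% were at or above its mean, against 0.632% for Itgb3 and at most 0.0903% for each feature of the other 4 genes. A dim feature can understate a change, so the interval of Dppa3 bounds the measured value and not the transcript itself.

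Kit (16590) encodes the receptor for stem cell factor, on which migrating germ cells depend. Untreated arrays gave 9.47, 9.15 and 9.31, and AA2G arrays gave 9.61, 9.38 and 9.52. The AA2G values lay higher, but the lowest of them, in replicate 2, was below the highest untreated value. The means were 9.31 ± 0.16 and 9.50 ± 0.12 (SD, n = 3). The fold change of 1.15, or a log2 fold change of 0.20 ± 0.10 (SE, with a limma adjusted p of 0.610), had an interval from -0.04 to 0.43 and was the largest in size among the members. The ligand gene Kitl was at -0.17 ± 0.10 (SE; limma adjusted p = 0.662).

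Alpl (11647) encodes the tissue-nonspecific alkaline phosphatase, whose activity is the classical stain for both germ cells and embryonic stem cells. Its brighter feature was at 9.50, 9.45 and 9.46 in untreated cells and at 9.38, 9.41 and 9.36 with AA2G. These groups did not overlap, which also held for 15.7% of all features (7.21% higher and 8.48% lower with AA2G), and the SD was 0.02 in each group. The log2 fold change was -0.09 ± 0.07 (SE; limma adjusted p = 0.753), with an interval from -0.24 to 0.07. The dimmer feature, at 7.76, 7.60 and 7.73 against 7.54, 7.64 and 7.66, overlapped between the groups and gave -0.08 ± 0.08 (SE; limma adjusted p = 0.806). Both features of the gene therefore had values of nearly the same size and sign.

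Itgb3 (16416) encodes the β3 integrin chain, a surface protein by which germ cells are sorted. Its values were 6.19, 5.95 and 6.22 without AA2G and 6.27, 6.13 and 6.15 with it. The groups overlapped, with untreated replicate 2 the lowest array. The log2 fold change was 0.07 ± 0.09 (SE; limma adjusted p = 0.878), with an interval from -0.15 to 0.28. Itgav, whose product pairs with the β3 chain, was at -0.29 ± 0.12 on its brighter feature (SE; limma adjusted p = 0.479) and at -0.14 ± 0.08 on its dimmer one (adjusted p = 0.620). That dimmer feature had means of 3.73 untreated and 3.59 with AA2G, below the 95th percentile of the olfactory receptor features, 4.88. Itgb5, an alternative partner of the αv chain, was at -0.43 ± 0.09 (adjusted p = 0.0909). Neither passed.

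**Figure D1:**
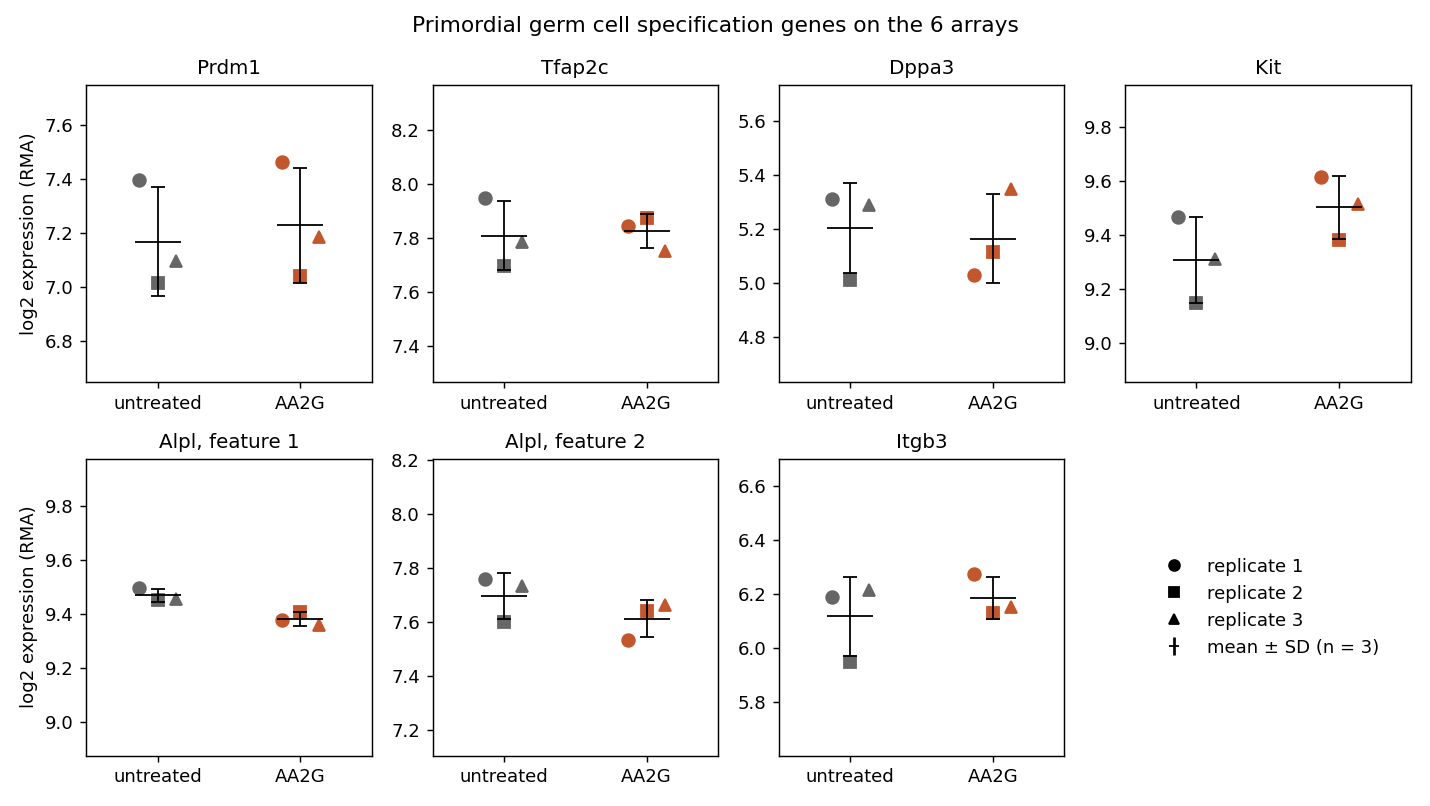
Each panel plots the log2 RMA value of a feature on the 3 untreated (grey) and 3 AA2G (orange) arrays, with symbols for the replicate numbers and bars for mean ± SD, and every panel spans the same log2 range. The groups overlap in all panels except that of the brighter Alpl feature, and Kit has the widest gap between means (9.31 and 9.50).

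The 6 genes did not share a single pattern over the arrays. As a description over 6 arrays, which share their normalization, Prdm1 and Kit had a Pearson r of 0.816, Kit and Itgb3 0.814 and Prdm1 and Itgb3 0.701, while Alpl ran against Kit at -0.523 and Dppa3 had values from 0.094 to 0.347 with the other members. Among 12813 brighter features, those most like each member by Pearson r over the 6 arrays were Cox18 (0.997) and Ubtd1 (0.995) for Prdm1 and Mapk11 (0.997) and Vat1 (0.986) for Tfap2c. For Dppa3 they were Rhov (0.992) and Bscl2 (0.971), and for Kit they were Derl3 (0.997) and Pgm2 (0.996). For Alpl they were Tubg1 and Nucks1 (both 0.993), and for Itgb3 they were Doxl1 (0.996) and H2bc3 (0.990). Each member had such neighbours, so with 6 points these values describe likeness on these arrays and no more.

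Upstream sequence was at hand for 3 of the 6 members, from RefSeq on GRCm38.p6. The 250 bases before the annotated start are shown because many late germline genes carry CpG-rich promoters that methylation silences, and the density of CpG (in capitals) shows how these members compare. Strands are those of the gene, 5′ to 3′.
Prdm1, chr10:44458749-44458998, minus strand: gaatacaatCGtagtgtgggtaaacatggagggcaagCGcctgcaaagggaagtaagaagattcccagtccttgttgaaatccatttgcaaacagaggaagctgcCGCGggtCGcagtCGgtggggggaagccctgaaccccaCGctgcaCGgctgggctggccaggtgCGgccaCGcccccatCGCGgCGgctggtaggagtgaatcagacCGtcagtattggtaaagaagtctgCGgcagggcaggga
Kit, chr5:75574737-75574986, plus strand: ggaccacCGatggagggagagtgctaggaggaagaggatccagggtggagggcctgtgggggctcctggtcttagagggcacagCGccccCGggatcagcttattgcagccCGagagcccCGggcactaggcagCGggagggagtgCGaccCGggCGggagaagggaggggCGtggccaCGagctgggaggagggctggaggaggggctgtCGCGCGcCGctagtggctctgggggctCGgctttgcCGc
Alpl, upstream start, chr4:137796385-137796634, minus strand: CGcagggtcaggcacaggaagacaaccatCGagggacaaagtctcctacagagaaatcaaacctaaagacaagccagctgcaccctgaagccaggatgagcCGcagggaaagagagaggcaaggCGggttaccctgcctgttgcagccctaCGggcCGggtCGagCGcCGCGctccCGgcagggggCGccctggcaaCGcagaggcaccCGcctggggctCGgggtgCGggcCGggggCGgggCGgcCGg
The Prdm1 window holds 15 CpG, that of Kit 17 and that of the upstream Alpl start 20, while the downstream Alpl start (chr4:137766476-137766725) has 4. Over 32851 such windows the median was 6, and 27.3% had 15 or more. Among the 12 late germline genes that rose, 11 had a window, with 5 to 25 CpG and a median of 17. The windows of Prdm1, Kit and the upstream Alpl start lay within that range and the downstream Alpl start just below it. The range is wide and also holds the median of all windows, so lying within it does not set the members apart. Late germline genes that did not pass were not compared. Motifs were searched on both strands. GCCNNNGGC, a half-site pair bound by AP-2 factors, occurred 2 times in the upstream Alpl window and 1 time in that of Kit (13.7% of all windows hold it). GTGAAAG, a core bound by PRDM1, occurred 1 time in the downstream Alpl window (3.57% of all windows). CACGTG (6.02%), TTCCCGC (3.82%) and ATTTGCAT (1.6%) were not found in the windows of these genes. No methylation was measured, and a match is a description of the letters only.

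The signals that induce germ cells did not pass either. Their list held genes of the BMP and WNT pathways and Eomes, and T on it had no feature with a single gene symbol. Of the 18 measured genes, 0 rose and 0 fell, 16 had a negative value, and the median log2 fold change was -0.08, against -0.01 over all features. At an unadjusted p below 0.05 none lay higher and 4 lay lower, where 5.06% of all features were lower at that level. The 4 were the ligand gene Bmp8b, the receptor genes Bmpr2 and Acvr1, and Id1, a direct target of BMP signalling. Bmp8b had a mean of 5.91 ± 0.11 untreated against 5.43 ± 0.07 after AA2G (SD, n = 3; limma adjusted p = 0.0567), and Bmpr2 at 9.28 ± 0.13 and 8.81 ± 0.04 (adjusted p = 0.0596). Acvr1 was at -0.31 ± 0.09 (SE; adjusted p = 0.283) and Id1 at -0.28 ± 0.08 (adjusted p = 0.215).

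Of 16 genes that act with PRDM1 and TFAP2C, or are shared between germ cells and pluripotent cells, 0 passed in limma. At an unadjusted p below 0.05, 1 lay higher and 4 lay lower, where 4.66% of all features were higher and 5.06% lower. Prdm14, the other PRDM factor of germ cell specification, was at 7.75 ± 0.05 and 7.62 ± 0.06 (SD, n = 3; limma adjusted p = 0.647). Lin28b, an inhibitor of let-7 microRNA, a microRNA that represses Prdm1, was at -0.41 ± 0.07 (SE; adjusted p = 0.0657). The pluripotency factor genes Klf4, Nanog and Pou5f1 were at -0.31 ± 0.07, -0.17 ± 0.07 and -0.16 ± 0.07 (adjusted p = 0.127, 0.445 and 0.455), and Klf2 was at 0.24 ± 0.07 (adjusted p = 0.272). The list median was -0.11.

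Among 20 other genes of germ cell identity and survival, 1 rose, 0 fell and 19 did not pass, where 0.608% of all features rose. Of the 20, 3 lay higher and 3 lower at an unadjusted p below 0.05, where 4.66% of all features were higher and 5.06% lower. The gene that rose was Rhox5 (18617), an X-linked homeobox gene. It was at 5.43, 5.58 and 5.25 in untreated cells and at 6.94, 7.09 and 6.94 with AA2G, a difference of 1.57 ± 0.10 (SE; limma adjusted p = 0.000352). Its neighbour in the same homeobox cluster, Rhox6, was at -0.39 ± 0.11 (adjusted p = 0.212). Ifitm3 (Fragilis), a surface gene of the earliest germ cell precursors, was at 9.81 ± 0.10 and 10.3 ± 0.15 (SD, n = 3) and did not pass (adjusted p = 0.0909). Its groups did not overlap, and 7.21% of all features were likewise higher with AA2G without overlap. Nanos3 and Dnd1, RNA-binding protein genes needed for germ cell survival, were at -0.15 ± 0.17 (SE; adjusted p = 0.847) and -0.17 ± 0.07 (adjusted p = 0.451), and the adhesion gene Pecam1 at 0.25 ± 0.10 (adjusted p = 0.438). Nanos3, with means of 5.17 untreated and 5.02 with AA2G, was about as dim as Dppa3. The list median was -0.10.

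Genes of the somatic mesoderm programme, which germ cell precursors turn down, had 0 of 14 past the threshold in limma, and a median of 0.01. At an unadjusted p below 0.05, 1 lay higher and 0 lay lower, where 4.66% of all features were higher and 5.06% lower. The smallest p belonged to Hoxb2 at 0.24 ± 0.08 (SE; limma adjusted p = 0.384) and Mixl1 at -0.23 ± 0.10 (adjusted p = 0.517). Many of these genes are dim. Hoxb2, Hoxb6 and Hoxb8 had means below 4.88, the 95th percentile of the olfactory receptor features, in both groups. Untreated means of Fgf8 (4.97), Evx1 (4.98), Cdx2 (5.08), Cdx1 (5.11) and Mesp1 (5.13) lay below that of Dppa3. The highest untreated mean was 5.85 (Mixl1). A gene with little signal in untreated cells can hardly be seen to fall, so the lack of falls says little about repression.

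Late germline genes were read from the same fit. Of 40 measured genes, 12 rose, 0 fell and 28 did not pass, or 30.0% higher against 0.608% of all features, and the list median was 0.26. The list was drawn up with earlier results of these data known, so its count is not independent evidence. Dazl, an RNA-binding protein gene of germ cells, went from 7.32, 6.83 and 7.02 to 9.25, 9.62 and 9.41, a difference of 2.37 ± 0.14 (SE; limma adjusted p = 0.000284). Sohlh2 rose by 2.45 ± 0.08 (adjusted p = 2.25e-05) and Rec114 by 2.33 ± 0.10 (adjusted p = 6.89e-05), and the interval of each began above 2. Ddx4, the helicase gene known as Vasa, was at -0.17 ± 0.07 (adjusted p = 0.481). The count of late germline genes that rose was 7 without AA2G replicate 2 and 3 with ordinary per-feature variances, where Dazl (adjusted p = 0.0972) and Rhox5 (0.0902) did not pass. A difference between the late genes and the specification genes as groups was not tested.

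**Figure D2:**
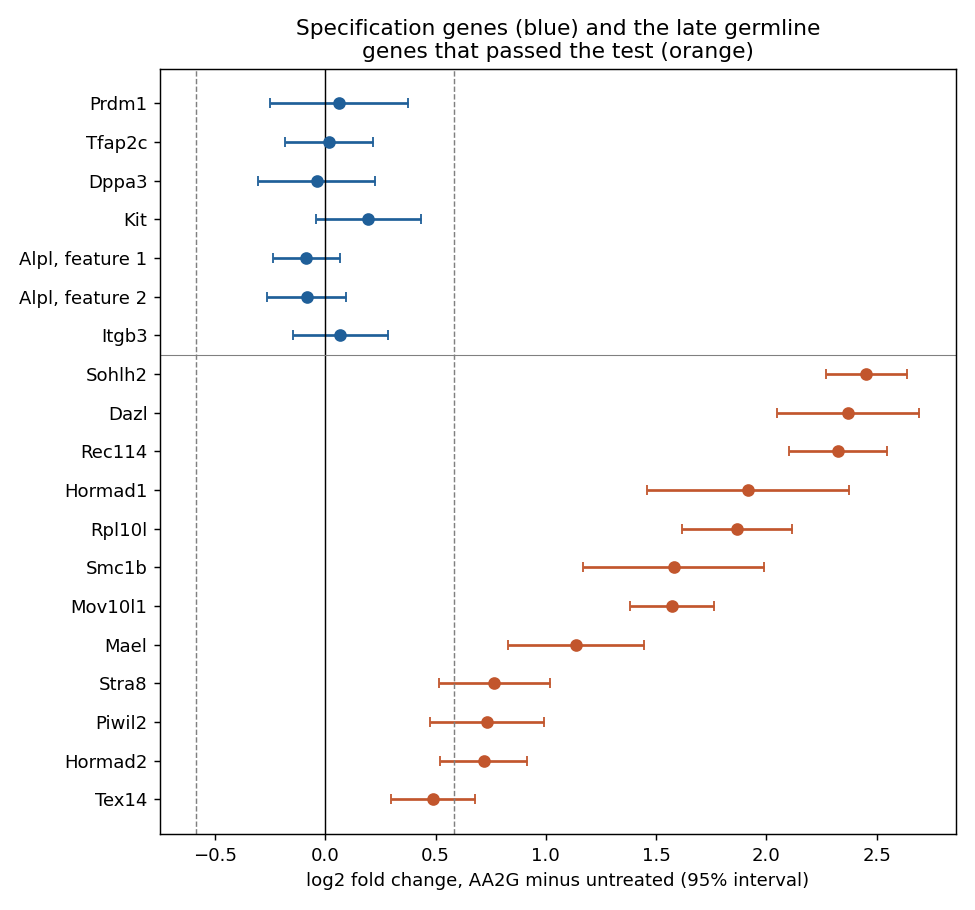
Points are log2 fold changes, AA2G minus untreated, with 95% intervals from limma, for the 7 features of the specification genes (blue) and the 12 late germline genes that passed (orange), which were selected for passing; dashed lines mark 1.5-fold. The blue intervals cover 0 and stay inside the dashed lines, while the orange values run from 0.49 (Tex14, named after its values were seen) to 2.45 (Sohlh2).

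**Figure D3:**
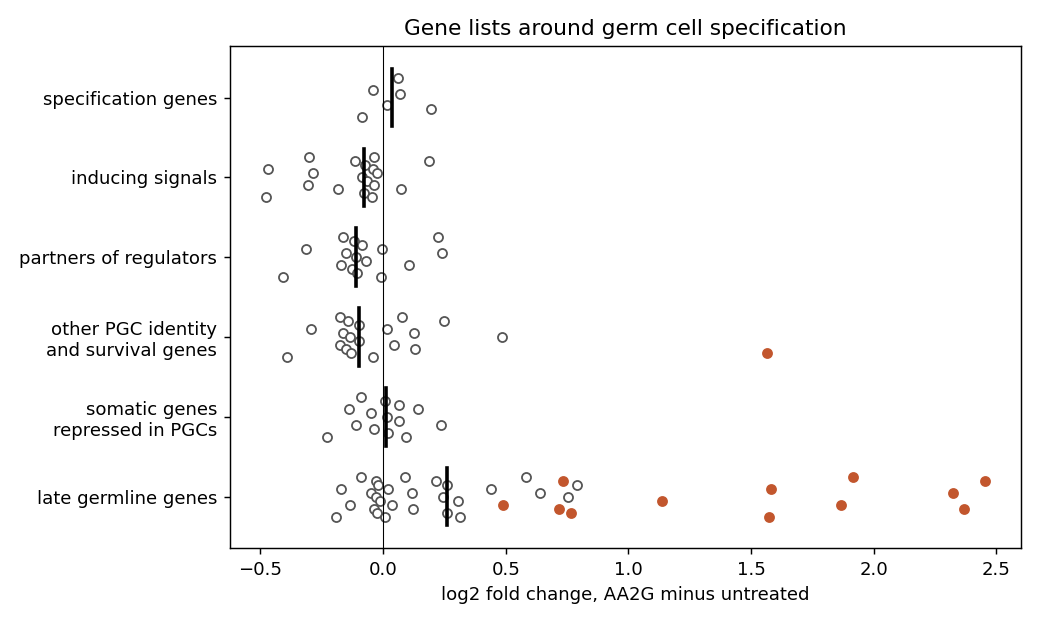
Every measured gene of 6 lists is a point at its log2 fold change, AA2G minus untreated, with the brightest feature per gene, filled where it passed the limma test, and black bars mark list medians; the vertical scatter within a list has no meaning. Filled points are 12 of 40 late germline genes and Rhox5 among the other identity genes, and the specification genes lie around 0.04.

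Nanog, a defining marker of embryonic stem cells, stood at 11.3 ± 0.03 on untreated arrays and 11.2 ± 0.04 on AA2G arrays (SD, n = 3). The 10 embryonic stem cell markers had 0 limma calls and a median of -0.08. At an unadjusted p below 0.05, 0 of them lay higher and 3, Nanog, Pou5f1 and Gdf3, lay lower. Over all features 4.66% were higher and 5.06% lower at that level. Lists of trophoblast (11 measured), primitive endoderm (12), blood and endothelium (12) and osteoblast and fibroblast genes (10) had 0 calls each. Some of these cell types also use Tfap2c, Kit, Itgb3 or Alpl. The lists had medians of 0.06, 0.02, 0.02 and -0.08, and from 1 to 2 genes each at an unadjusted p below 0.05. Their smallest p belonged to Krt8 at -0.35 ± 0.07 (SE; limma adjusted p = 0.0894), Lama1 at 0.50 ± 0.09 (adjusted p = 0.0706), Tek at 0.48 ± 0.09 (adjusted p = 0.0867) and Sp7 at -0.38 ± 0.11 (adjusted p = 0.242). With other settings Lama1, Tek and Krt8 passed: with array weights the adjusted p was 0.012, 0.0267 and 0.0209, and with brighter features only it was 0.0372, 0.0458 and 0.0409. In RNA of a whole culture, fewer cells of a type and less RNA per cell cannot be told apart.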

How the data were processed

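The deposited values are log2 expression values; the submitters' processing notes name RMA and Affymetrix Expression Console, and versions and filters were not stated. All 6 sample columns were used. Values ran from 1.2 to 13.24 with array medians of 5.06 to 5.1, and there are no detection calls. Of 41345 features, the 23521 with exactly 1 gene symbol in the platform annotation were tested in R 4.3.3 with lmFit and eBayes of limma 3.58.1 (two-sided, no covariate, 3 against 3 arrays), which also gave the 95% intervals. A permutation test of this size reaches 0.1 at best and was not used. The series' design text calls the replicates independent and names no shared batch or day. Lists were counted on the brightest feature per gene, and 8 listed genes had no feature with 1 symbol. Genes named are the members, 12 genes fixed by name, up to 4 per list with the smallest p, and the 2 features most like each member (Pearson r, mean above 4.99, the percentile 40). Members and lists were chosen with earlier results of these data known. Alternatives were repeated quantile normalization, a median shift, other variance priors, array weights, a block for the replicate number, other sets of features, and leaving out each array. The fit was tested on simulated data. Upstream windows were searched with Python 3.11.15.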

Additional observations from a re-analysis of the deposited data

How the results depend on the processing

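Under all 15 alternatives 0 of the 6 specification genes passed (at an unadjusted p under 0.05, Alpl alone with ordinary variances, and Kit alone with array weights, with the replicate number as a block and without untreated replicate 1), and every member feature kept its 95% interval within 1.5-fold. The check of the intervals was not planned beforehand. The sign of small values turned with single arrays left out: the values ran from -0.055 to 0.175 for Prdm1, -0.041 to 0.084 for Tfap2c, -0.136 to 0.028 for Dppa3, -0.016 to 0.118 for Itgb3, -0.316 to 0.003 for Nanos3 and -0.217 to 0.016 for Dppa4, so no direction can be given for these genes. Kit stayed between 0.115 and 0.274 and the brighter Alpl feature between -0.1 and -0.073. Over all features 179 passed; the count was 277 with a trended robust prior, 13 with ordinary per-feature variances, 496 with array weights and 64 to 131 with an array left out. The share of rises among the calls went from 79.9% to 61.1% with array weights, 65.7% with brighter features and 90.6% without untreated replicate 3. The count of late germline genes that rose, for which alternatives were chosen after seeing the data, was 12, against 3 with ordinary variances and 7 to 12 with an array left out. Bmp8b, Bmpr2, Lin28b, Ifitm3 and Itgb5 each passed with the trended robust prior, with array weights and with brighter features, with adjusted p over all alternatives from 0.0139 to 0.326. Lama1 passed in these 3 settings and without untreated replicate 1, Tek and Krt8 with array weights and brighter features, and Klf4 with the trended robust prior and array weights. Same-numbered arrays deviated together with correlations over features of 0.231, 0.224 and 0.0169. Each untreated array matched the AA2G array of its own number best. The main fit did not take the numbers as pairs, and whether same-numbered arrays share a batch was not tested. With the replicate block 155 features passed. The cause of these differences was not tested. Without detection calls, a dim feature such as that of Dppa3 limits what can be seen.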

Other observations

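Relatives of the specification genes were read from the same fit. The other AP-2 genes had 0 of 4 past the threshold in limma and 1 higher at an unadjusted p under 0.05, Tfap2b at 0.29 ± 0.11 (SE; limma adjusted p = 0.421), with Tfap2a, which germ cells also use, at -0.10 ± 0.11 (adjusted p = 0.843). Of the 3 other alkaline phosphatase genes 0 passed, and Alppl2, the embryonic form, had the smallest p, at 0.31 ± 0.10 (adjusted p = 0.354). Tfap2b, Tfap2a and Alppl2 are dim. Their means, untreated and with AA2G, were 3.46 and 3.74, 4.77 and 4.67, and 4.25 and 4.55. The 95th percentile of the olfactory receptor features was 4.88. All 13 measured genes of the PRDM family other than Prdm1 failed to pass, with 0 at an unadjusted p under 0.05 and values from -0.16 to 0.15. The Dppa genes were grouped by name. Of 4 measured Dppa genes other than Dppa3, 0 passed, all 4 values were negative and 1 was lower at an unadjusted p under 0.05, Dppa1 at -0.26 ± 0.10 (SE; limma adjusted p = 0.453). Dppa1 is dim: its means of 2.68 untreated and 2.42 with AA2G lay below 2.88, the median of the olfactory receptor features. Dppa2 and Dppa4, chromatin factor genes that belong to another protein family than Dppa3, were at -0.21 ± 0.19 and -0.11 ± 0.15 (adjusted p = 0.807 and 0.880). The relatives of Kit among receptor kinases (Pdgfra, Pdgfrb, Csf1r and Flt3) had values from -0.09 to 0.11, and 0 passed, also at an unadjusted p under 0.05. Among 9 integrin genes related to Itgb3, 0 passed and 3 were lower at an unadjusted p under 0.05, among them Itgb5 and Itgb4, the latter at -0.23 ± 0.07 (adjusted p = 0.288).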
